A study of Mus musculus with 8 samples.

Results

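The expression of genes for cholesterol synthesis and for fatty acid synthesis was examined in mouse bone marrow-derived macrophages, which are macrophages grown in culture from bone marrow cells. The 32 genes were taken by name from the 20258 named genes of the deposited table, and each had 1 row in it. Of these, 20 belong to sterol synthesis (17 enzymes together with Insig1, Srebf2 and Scap, which control the pathway) and 12 belong to fatty acid synthesis, elongation and desaturation (11 enzymes together with the regulator Srebf1). All macrophages came from C57BL/6 mice and carried no stated genetic change. They had been left unstimulated (2 libraries), given IL4 (3 libraries) or given LPS together with IFNg (3 libraries) for 24 h. IL4 is a cytokine of type 2 immunity, LPS is a bacterial cell wall component and IFNg is a cytokine of type 1 immunity. The doses and the number of mice were not given in the sources used here, and the labels do not say whether the libraries of a group came from separate mice or cultures. The p-values therefore measure only the spread between these libraries, which may be technical.

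Cells make cholesterol from acetyl-CoA by the mevalonate pathway, in which small isoprenoid units are built up to squalene, and squalene is then closed into a ring and trimmed to cholesterol. Fatty acids are made from the same acetyl-CoA by carboxylation, stepwise synthesis, elongation and insertion of double bonds. Both pathways are controlled by the SREBP transcription factors: Scap escorts them out of the endoplasmic reticulum when sterols are low, Insig proteins hold them back when sterols are high, and the SREBP2 and SREBP1 forms are known mainly for sterol genes and for fatty acid genes respectively. In macrophages these pathways are known to be altered by inflammatory signals.

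The values were quantile-normalised log2 expression values from 3' end RNA sequencing, so a difference of 1 is a 2-fold difference. Read depth could not be recovered from them. Between 9967 and 11837 genes were above 0 in a library, and the first unstimulated library had the fewest tested genes listed at 0 (1577, against 2588 to 3568 in the other libraries). All 7 macrophage markers were detected, and their summed level was 14.2 to 14.3 in unstimulated, 13.2 to 13.8 in IL4 and 13.6 to 13.7 in LPS plus IFNg libraries. Against unstimulated cells, Lyz2, Fcgr1 and Mertk were called lower with IL4. With LPS plus IFNg, Csf1r and Lyz2 were called lower and Fcgr1 higher than in unstimulated cells. Nos2, the inducible nitric oxide synthase, was listed at 0 in every library except those given LPS plus IFNg, where it was 10.06, 10.43 and 10.18, as their labels state. The summed level of 7 neutrophil markers was 11.0 to 11.2 in unstimulated, 9.87 to 10.7 in IL4 and 7.65 to 8.20 in LPS plus IFNg libraries, with 3 of them (S100a8, S100a9 and Ltf) called lower with LPS plus IFNg in both comparisons. The summed level of 6 fibroblast markers was 11.2 to 11.6 in unstimulated, 10.1 to 10.7 in IL4 and 10.2 to 11.2 in LPS plus IFNg libraries. None of these 6 was called in any comparison. The part of neutrophils and fibroblasts in the results was not tested. In bulk RNA, fewer cells of a type and less RNA per cell cannot be told apart.

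Several genes of sterol synthesis were lower with LPS plus IFNg than with IL4, and no member of either pathway was called higher in any comparison. With LPS plus IFNg, 5 sterol genes (Idi1, Sqle, Cyp51, Hsd17b7 and Insig1) and 2 fatty acid genes (Fasn and Scd2) were called lower than with IL4. From unstimulated cells, Fasn and Scd2 differed with LPS plus IFNg by -0.02 and 1.02 on the log2 scale, and neither was called. Relative to unstimulated cells, Idi1 and Cyp51 were called lower with LPS plus IFNg, 6.45% of the tested members beside 4.25% of all tested genes. Neither of these calls was firm. With IL4 alone, no member passed the test against unstimulated cells. A gene was called at an adjusted p below 0.05 in limma, with Benjamini-Hochberg adjustment over all 13615 genes that varied. Hmgcs1, the enzyme that makes HMG-CoA, was listed at 0 in all 8 libraries and could not be tested, which left 31 members, 19 of sterol and 12 of fatty acid synthesis.

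Against IL4, the 7 of 31 members called lower with LPS plus IFNg made up 22.6%, where 6.96% of all tested genes were called lower and 12.9% were called in either direction. The 0 of 31 called higher stood beside 5.91% of all tested genes. By pathway, 5 of 19 sterol genes (26.3%) and 2 of 12 fatty acid genes (16.7%) were called lower. At an unadjusted p below 0.05 in limma, 9 members were lower and 1 was higher, beside 13.9% and 11.6% of all tested genes. The difference was negative in 15 of 19 sterol genes and 10 of 12 fatty acid genes, together 80.6% of the members against 47.5% of all tested genes. Its median was -1.27 over the sterol genes, -0.78 over the fatty acid genes and 0.00 over all tested genes. All 3 LPS plus IFNg libraries lay below all 3 IL4 libraries for 10 of 31 members, where 14.8% of all tested genes did so. Acss2 alone among the members lay wholly above, as 12.4% of all tested genes did. Of the 11 housekeeping genes used for scaling below, 81.8% also had a negative difference, with a median of -0.39. For 4 of them the LPS plus IFNg libraries lay wholly below, and 0 were called. A negative sign was thus not particular to the members.

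Against unstimulated cells, 2 of 31 members (6.45%) were called lower with LPS plus IFNg, near the 4.25% of all tested genes called lower, while 7.97% were called in either direction. None was called higher, beside 3.72% of all tested genes. At an unadjusted p below 0.05 in limma, 6 members were lower and 1 was higher, beside 10.9% and 8.47% of all tested genes. The median difference was -0.65 over the sterol genes, -0.03 over the fatty acid genes and -0.04 over all tested genes. The LPS plus IFNg and unstimulated libraries did not overlap for 10 members that were lower, 9 of them sterol genes, where 20.7% of all tested genes were lower without overlap. Only Acss2 was higher without overlap, beside 16.1% of all tested genes. Of the 11 housekeeping genes, 6 were lower without overlap and 1 was called lower, and their median difference was -0.55. This comparison and the one against IL4 share the 3 LPS plus IFNg libraries, so they are not independent of each other.

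With IL4, 0 of 31 members were called higher and 0 lower in limma, where 0.514% of all tested genes were called higher and 0.793% lower. At an unadjusted p below 0.05, 4 members were higher (Fasn, Hsd17b7, Scd2 and Srebf1) and 0 were lower, beside 5.53% and 6.57% of all tested genes. The median difference was 0.30 over the sterol genes, 0.55 over the fatty acid genes and -0.01 over all tested genes. The 3 IL4 and 2 unstimulated libraries did not overlap for 9 members that were higher with IL4 (Acat2, Mvd, Nsdhl, Hsd17b7, Dhcr7, Srebf2, Srebf1, Fasn and Scd2), beside 11.7% of all tested genes. They also did not overlap for 3 members that were lower (Fdps, Sc5d and Fads1), beside 14.7% of all tested genes. The unstimulated libraries used here are the same as in the comparison with LPS plus IFNg.

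**Figure D1:**
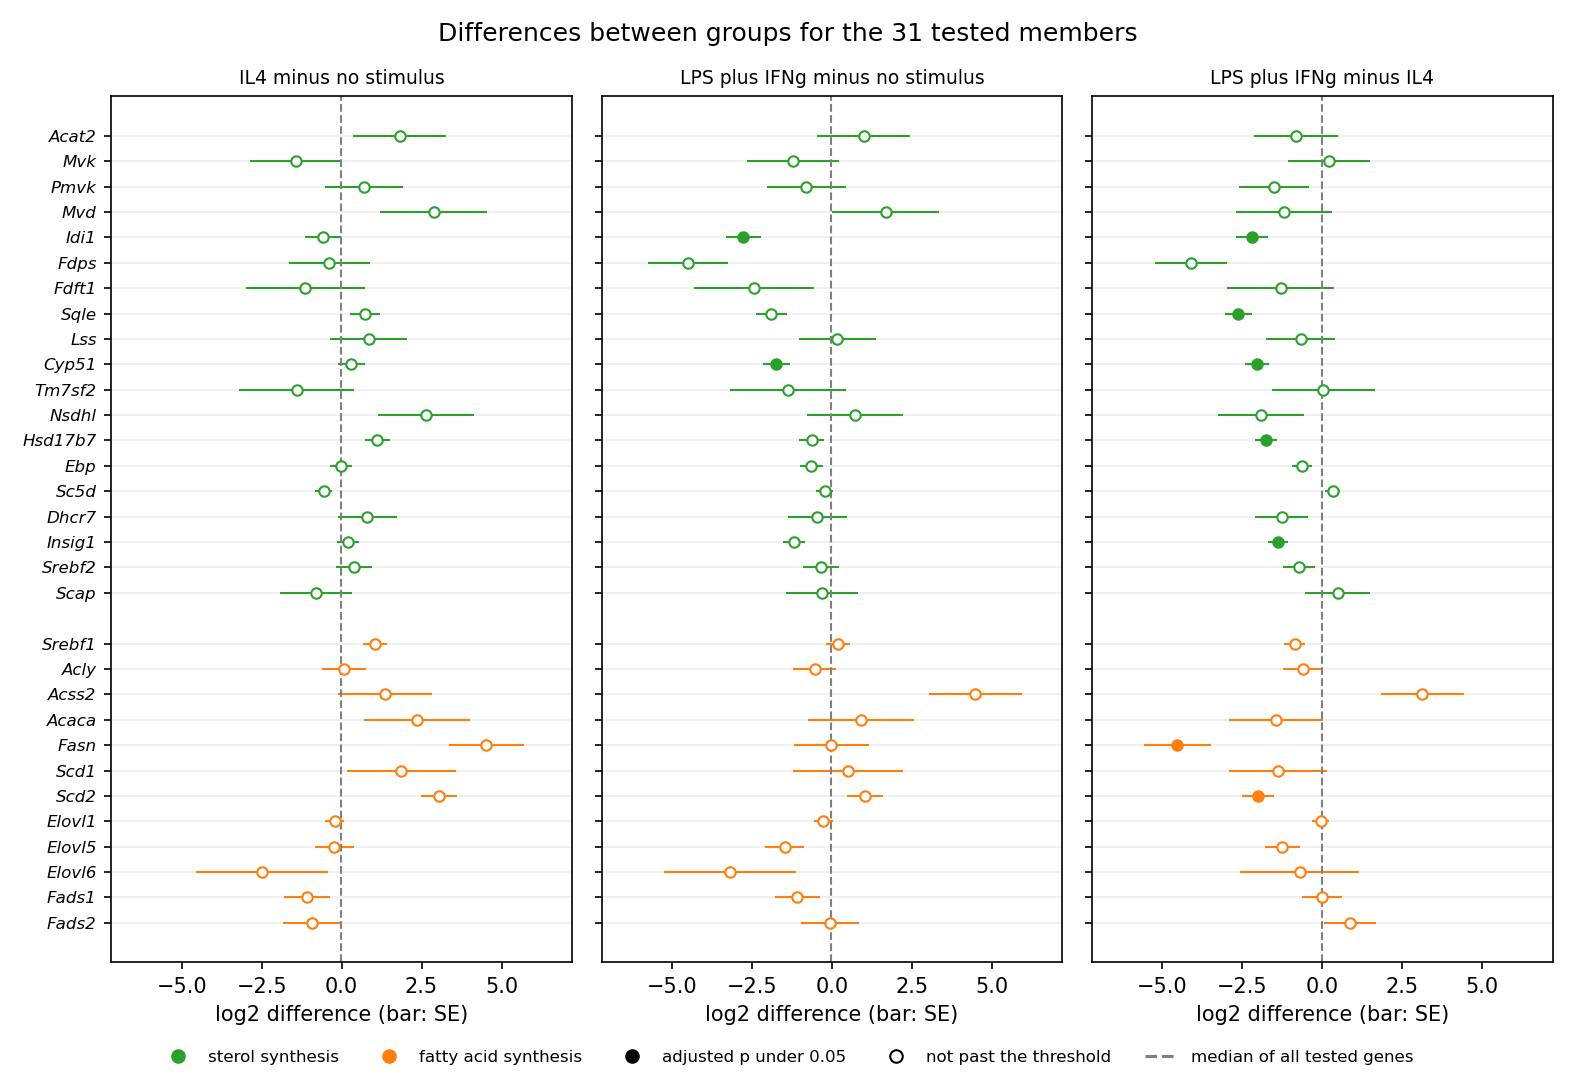
Log2 differences of the 31 tested members in the 3 comparisons, with the standard error of each from limma and the called members marked. The called members all lie below 0 in the 2 comparisons of LPS plus IFNg, and no member is called with IL4 against unstimulated cells.

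Placed by group mean, LPS plus IFNg was the lowest of the 3 groups for 17 of the 31 members (54.8%), against 34.9% of all tested genes. It was the highest for Acss2 alone (3.23%), against 34.3% of all tested genes. IL4 was the highest of the 3 groups for 17 of the 31 members (54.8%), against 30.7% of all tested genes. The full order with IL4 highest and LPS plus IFNg lowest held for 9 members (29.0%), against 18.1% of all tested genes. The median over the tested sterol genes within a library was 5.37 and 5.01 in the unstimulated, 5.30, 5.55 and 5.26 in the IL4 and 4.39, 4.46 and 3.83 in the LPS plus IFNg libraries. The LPS plus IFNg libraries were thus below all the others on this measure. For the fatty acid genes the same medians were 5.29 and 4.80, then 5.49, 5.65 and 5.21, then 5.38, 4.39 and 4.94, and the groups overlapped.

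These differences are relative to the whole normalised library, and 2 other scalings were tried. Scaling to 11 housekeeping genes raised the median difference of all tested genes by 0.27 for LPS plus IFNg against IL4, and scaling to 80 ribosomal protein genes raised it by 1.18. Relative to the median of all tested genes, the sterol median was -1.27 as deposited, -1.15 under housekeeping and -1.10 under ribosomal protein scaling. The fatty acid median was -0.78, -0.74 and -0.73 in the same order. Each scaling shifts all values of a library by the same amount, except those listed at 0. These relative medians were therefore bound to stay close and are no check on the result. Without that subtraction the sterol median was -0.88 under housekeeping and 0.073 under ribosomal protein scaling. The fatty acid median was then -0.47 and 0.45. Under housekeeping scaling Sqle, Cyp51, Hsd17b7 and Fasn were still called lower with LPS plus IFNg than with IL4, and under ribosomal protein scaling Fasn alone was. Neither Idi1 nor Cyp51 was called against unstimulated cells under either scaling.

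The first enzymes of the mevalonate pathway were low and scattered, and none passed the test. Acat2, which joins acetyl-CoA units, ranged from 1.84 to 4.62 in the unstimulated and IL4 libraries, and was listed at 0 in 1 LPS plus IFNg library. Mvk and Pmvk, which phosphorylate mevalonate, ranged from 0.00 to 4.30 and from 0.75 to 4.67 over the 8 libraries. Mvd, which removes the carboxyl group, was 2.57 and 0.62 unstimulated, 4.90, 4.89 and 3.63 with IL4, and 4.18, 5.64 and 0.00 with LPS plus IFNg. The IL4 libraries lay above the unstimulated ones for Mvd, at a difference of 2.88 with an adjusted p of 0.547 in limma.

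Idi1, the isomerase that readies isoprenoid units for chain building, was the mevalonate enzyme called in both comparisons of LPS plus IFNg. Its level was 6.62 and 7.26 in the unstimulated libraries, 6.45, 5.91 and 6.71 with IL4, and 4.04, 4.94 and 3.53 with LPS plus IFNg. Every LPS plus IFNg library lay below every other library. The group means were 6.94 ± 0.45 (SD, n = 2), 6.36 ± 0.41 (SD, n = 3) and 4.17 ± 0.71 (SD, n = 3). LPS plus IFNg was lower than unstimulated by a log2 difference of -2.77 (SE 0.56, adjusted p 0.026 in limma) and lower than IL4 by -2.19 (SE 0.50, adjusted p 0.0285), a 4.55-fold difference. Neither call was firm. Against IL4, adjusted p rose to between 0.051 and 0.083 when any 1 of 6 libraries was left out, that is any but the second IL4 and the second LPS plus IFNg library. Against unstimulated cells it rose to between 0.0556 and 0.154 without either unstimulated library or without the first or the third LPS plus IFNg library.

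Fdps, which makes farnesyl diphosphate, was 5.61 and 5.97 in unstimulated libraries, 5.37, 5.55 and 5.29 with IL4, and 0.00, 3.86 and 0.00 with LPS plus IFNg. The LPS plus IFNg libraries lay below all the others, 2 of them listed at 0. The difference did not pass the test, at an adjusted p of 0.0823 against unstimulated and 0.0556 against IL4 in limma. Without the second LPS plus IFNg library, which held the one value above 0, adjusted p was 0.0165 and 0.00889, but both remaining LPS plus IFNg libraries were then listed at 0. Without any 1 of the other 7 libraries it was higher than with all 8, up to 0.331 against unstimulated and 0.138 against IL4.

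After the mevalonate steps, Fdft1 joins farnesyl units to squalene, and its level was 5.37 and 3.76 unstimulated, 0.00 to 5.30 with IL4, and 3.27, 3.12 and 0.00 with LPS plus IFNg. The LPS plus IFNg libraries were below both unstimulated libraries for Fdft1, but 1 IL4 library was listed at 0 and no test was passed. Sqle, squalene epoxidase, is the oxygen-dependent step that follows. Sqle was 6.48 and 7.24 unstimulated, 7.09, 7.96 and 7.73 with IL4, and 4.39, 4.97 and 5.53 with LPS plus IFNg. Every LPS plus IFNg library was below every other library. The means were 6.86 ± 0.54 (SD, n = 2), 7.59 ± 0.45 (SD, n = 3) and 4.97 ± 0.57 (SD, n = 3). Sqle was 6.18-fold lower with LPS plus IFNg than with IL4, a log2 difference of -2.63 (SE 0.43, adjusted p 0.00757 in limma), and it stayed called without any 1 of the 8 libraries (adjusted p at most 0.0278). Against unstimulated cells the difference was -1.89 (SE 0.48), with an adjusted p of 0.0571. Lss, which closes squalene epoxide into lanosterol, ranged from 1.48 to 4.56 over the 8 libraries and passed no test.

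Cyp51 removes a methyl group from lanosterol, the first step of trimming. Its level was 7.35 and 7.33 unstimulated, 7.86, 7.98 and 7.08 with IL4, and 5.35, 5.26 and 6.20 with LPS plus IFNg. The LPS plus IFNg libraries were again below all the others. The means were 7.34 ± 0.01 (SD, n = 2), 7.64 ± 0.49 (SD, n = 3) and 5.60 ± 0.52 (SD, n = 3). Cyp51 was 4.11-fold lower with LPS plus IFNg than with IL4 (log2 difference -2.04, SE 0.37, adjusted p 0.012 in limma), a call kept without any 1 of the 8 libraries (adjusted p at most 0.0438). It was 3.33-fold lower than in unstimulated cells (log2 difference -1.74, SE 0.41, adjusted p 0.0483). That second call was kept only without the third IL4 or the third LPS plus IFNg library, and adjusted p was 0.0581 to 0.209 without any 1 of the other 6. The 3' end of Cyp51 is overlapped by Akap9 on the opposite strand in GENCODE M21. The libraries kept strand, but no source used here says whether the authors' counting used it.

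Hsd17b7, a ketosteroid reductase of the trimming steps, was 5.68 and 5.87 unstimulated, 6.41, 7.10 and 7.18 with IL4, and 5.20, 5.04 and 5.16 with LPS plus IFNg. With Fdps, it was one of 2 members whose 3 groups did not overlap at all, here with IL4 highest and LPS plus IFNg lowest. The means were 5.77 ± 0.13 (SD, n = 2), 6.90 ± 0.42 (SD, n = 3) and 5.14 ± 0.08 (SD, n = 3). Between the stimulated groups Hsd17b7 differed by -1.76 (SE 0.35, adjusted p 0.0165 in limma). The differences from unstimulated cells were 1.12 with IL4 (adjusted p 0.291) and -0.64 with LPS plus IFNg (adjusted p 0.440). The call between the stimulated groups was lost without the second IL4, the third IL4 or the second LPS plus IFNg library, at an adjusted p of 0.0516, 0.054 and 0.0516.

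The other trimming enzymes passed no test. Ebp, the sterol isomerase, had group means of 8.16, 8.15 and 7.52 in unstimulated, IL4 and LPS plus IFNg libraries. Sc5d, which adds a double bond, kept within 6.82 and 7.89 over all libraries. Dhcr7, which removes a double bond in a last step to cholesterol, was 4.40 and 3.68 unstimulated, 4.96, 4.56 and 5.03 with IL4, and 4.53, 2.03 and 4.18 with LPS plus IFNg. All 3 IL4 libraries were above all the others for Dhcr7, with a difference from LPS plus IFNg of 1.27 on the log2 scale and an adjusted p of 0.420. Nsdhl and Tm7sf2, a dehydrogenase and a reductase of the same steps, were each listed at 0 in at least 1 library.

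**Figure D2:**
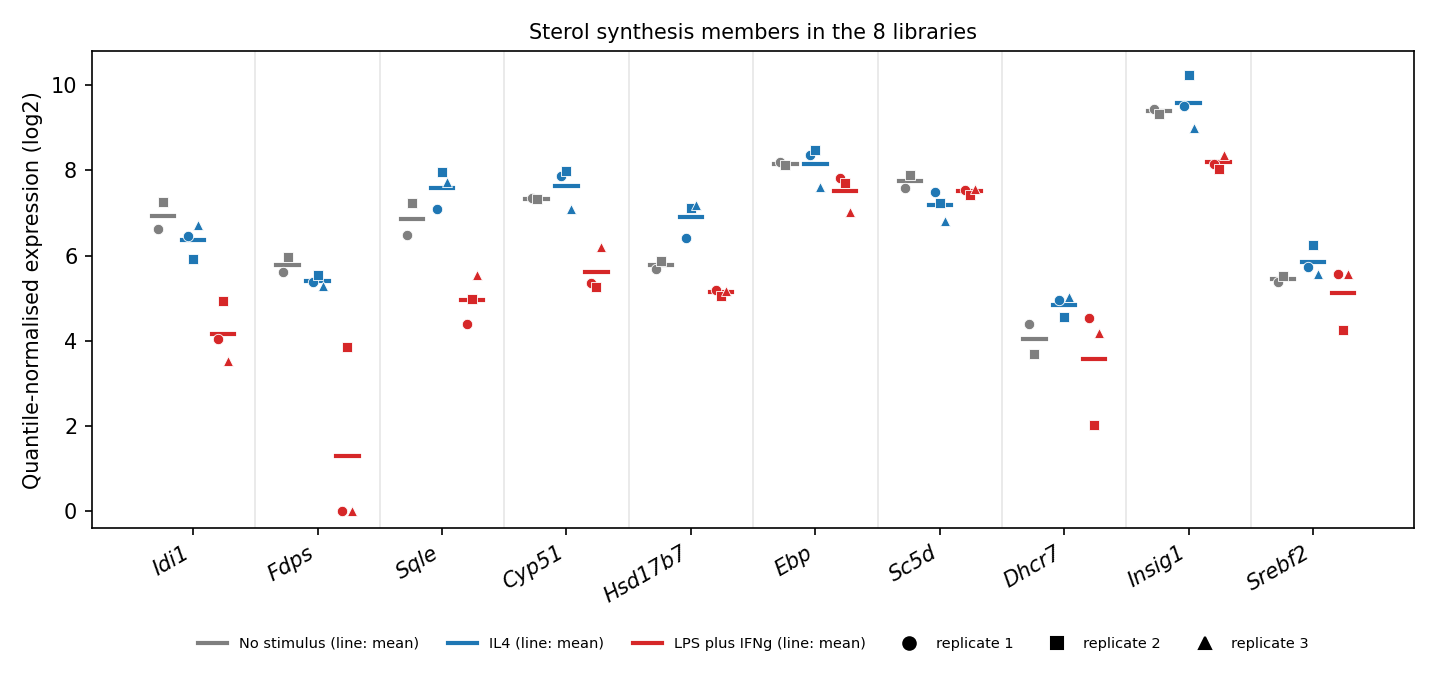
Log2 expression of 10 of the sterol synthesis members in each of the 8 libraries, with points for libraries grouped by stimulus and a line at each group mean. For Idi1, Fdps, Sqle, Cyp51, Hsd17b7 and Insig1 all 3 LPS plus IFNg libraries lie below the other 5. Ebp, Sc5d, Dhcr7 and Srebf2 overlap between groups or lie close together.

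Among the sterol regulators, Insig1 was the one called. Insig1 is the membrane protein that retains the Scap and SREBP complex when sterols are plentiful, and it is itself a known SREBP target. Its level was 9.44 and 9.32 unstimulated, 9.50, 10.24 and 8.99 with IL4, and 8.16, 8.03 and 8.37 with LPS plus IFNg. All 3 LPS plus IFNg libraries were below all the others. The means were 9.38 ± 0.08 (SD, n = 2), 9.58 ± 0.63 (SD, n = 3) and 8.18 ± 0.17 (SD, n = 3). LPS plus IFNg differed from IL4 by -1.39 (SE 0.31, adjusted p 0.0262 in limma) and from unstimulated by -1.20 (SE 0.35, adjusted p 0.092, or 0.0248 and 0.0444 without the second or the third IL4 library). The call against IL4 was kept only without the second or the third IL4 library, and adjusted p was 0.0566 to 0.0862 without any 1 of the other 6. Under ribosomal protein scaling the difference from IL4 was 0.073 with an adjusted p of 0.915, which was 1.10 below the shifted median of all tested genes.

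Srebf2, which encodes SREBP2, had means of 5.46 ± 0.10 (SD, n = 2) unstimulated, 5.84 ± 0.35 (SD, n = 3) with IL4 and 5.13 ± 0.76 (SD, n = 3) with LPS plus IFNg, and the difference of LPS plus IFNg from IL4 was -0.72 with an adjusted p of 0.464 in limma. Scap, the escort protein, had means of 4.80, 4.01 and 4.49. Neither the SREBP2 gene nor the escort gene passed a test, so at the RNA level no change in either was detectable with these libraries.

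Srebf1 encodes SREBP1. Its level was 7.39 and 6.96 unstimulated, 7.94, 8.14 and 8.56 with IL4, and 7.15, 6.92 and 7.99 with LPS plus IFNg. The IL4 libraries lay above both unstimulated libraries and overlapped with the third LPS plus IFNg library. The difference of IL4 from unstimulated was 1.04 (SE 0.37), with an adjusted p of 0.314 in limma. Among the enzymes that supply fatty acid synthesis, Acly, which makes cytosolic acetyl-CoA from citrate, had means of 5.46, 5.53 and 4.92 and passed no test. Acaca, which carboxylates acetyl-CoA, ranged from 0.37 to 5.86 and passed none either.

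Acss2, which makes acetyl-CoA from acetate, was the one member highest with LPS plus IFNg. It was 2.57 and 0.00 unstimulated, 3.64, 0.00 and 4.28 with IL4, and 5.35, 5.91 and 6.06 with LPS plus IFNg. Every LPS plus IFNg library was above every other library. The difference was 4.49 (SE 1.46, adjusted p 0.130 in limma) from unstimulated and 3.13 (SE 1.31, adjusted p 0.188) from IL4, and neither passed the test. Without the second IL4 library, which was listed at 0, the adjusted p against unstimulated cells was 0.0427. Without any 1 of the other 7 libraries it was 0.123 to 0.515, the highest without the second unstimulated library, where the difference was 3.21. The 3' end of Acss2 is overlapped by Gss on the opposite strand in GENCODE M21. The 3' ends of Mvd, Fdft1, Lss, Srebf1 and Elovl1 are likewise overlapped on the opposite strand. That of Fdps is overlapped by Gm43738 on the same strand.

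Fasn, the fatty acid synthase that builds the chain, was high only in the IL4 libraries. Fasn was 1.73 and 0.00 unstimulated, 4.61, 6.53 and 5.03 with IL4, and 2.55, 0.00 and 0.00 with LPS plus IFNg. The IL4 libraries did not overlap with any other. Fasn differed between LPS plus IFNg and IL4 by -4.54 (SE 1.05, adjusted p 0.0307 in limma), a size that depends on how values listed at 0 are treated: with log2 values damped near 0 it was -3.83. Against unstimulated cells the IL4 difference was 4.52 (SE 1.18), with an adjusted p of 0.157. The call between the stimulated groups was kept without the first unstimulated (0.0494) or the first LPS plus IFNg library (0.0231), and adjusted p was 0.0501 to 0.101 without any 1 of the other 6.

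Scd2, a desaturase that puts the first double bond into saturated chains, was also highest with IL4. It was 6.76 and 4.69 unstimulated, 8.37, 8.95 and 8.95 with IL4, and 6.80, 6.59 and 6.85 with LPS plus IFNg. The IL4 libraries were above all the others, and the 2 unstimulated libraries were far apart. The means were 5.72 ± 1.46 (SD, n = 2), 8.76 ± 0.33 (SD, n = 3) and 6.75 ± 0.14 (SD, n = 3). Scd2 was 4.03-fold lower with LPS plus IFNg than with IL4 (log2 difference -2.01, SE 0.50, adjusted p 0.0405 in limma). With IL4 it was 8.18-fold above unstimulated, with an adjusted p of 0.0579 (log2 difference 3.03, SE 0.56). Without the first unstimulated library that difference was 4.07 with an adjusted p of 0.00445, and without the second it was 1.997 with an adjusted p of 0.0504. Without any 1 of the other 6 libraries its adjusted p was 0.103 to 0.13. The difference of LPS plus IFNg from unstimulated was 1.02 (adjusted p 0.380), with 2.06 (adjusted p 0.0281) without the first unstimulated library and -0.012 without the second. The call between the stimulated groups was lost without any 1 of the 6 IL4 and LPS plus IFNg libraries, at an adjusted p of 0.07 to 0.116. Scd1, a close relative that may share reads with Scd2, was 1.56 and 0.00 unstimulated, 3.13, 4.83 and 0.00 with IL4, and 3.84, 0.00 and 0.00 with LPS plus IFNg.

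The elongases and the polyunsaturated desaturases passed no test. Elovl1, which lengthens very long saturated chains, kept within 6.86 and 7.62. Elovl5, which lengthens polyunsaturated chains, was 6.44 and 7.08 unstimulated, 6.32, 6.48 and 6.79 with IL4, and 6.03, 4.12 and 5.71 with LPS plus IFNg, where all 3 values were below all the others. Its difference from unstimulated was -1.47 (SE 0.61) with an adjusted p of 0.239 in limma. Elovl6, which lengthens the product of Fasn, ranged from 0.00 to 6.03. Fads1, a polyunsaturated desaturase, had means of 6.27, 5.19 and 5.18, and Fads2, its partner, was listed at 0 in 6 of 8 libraries.

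**Figure D3:**
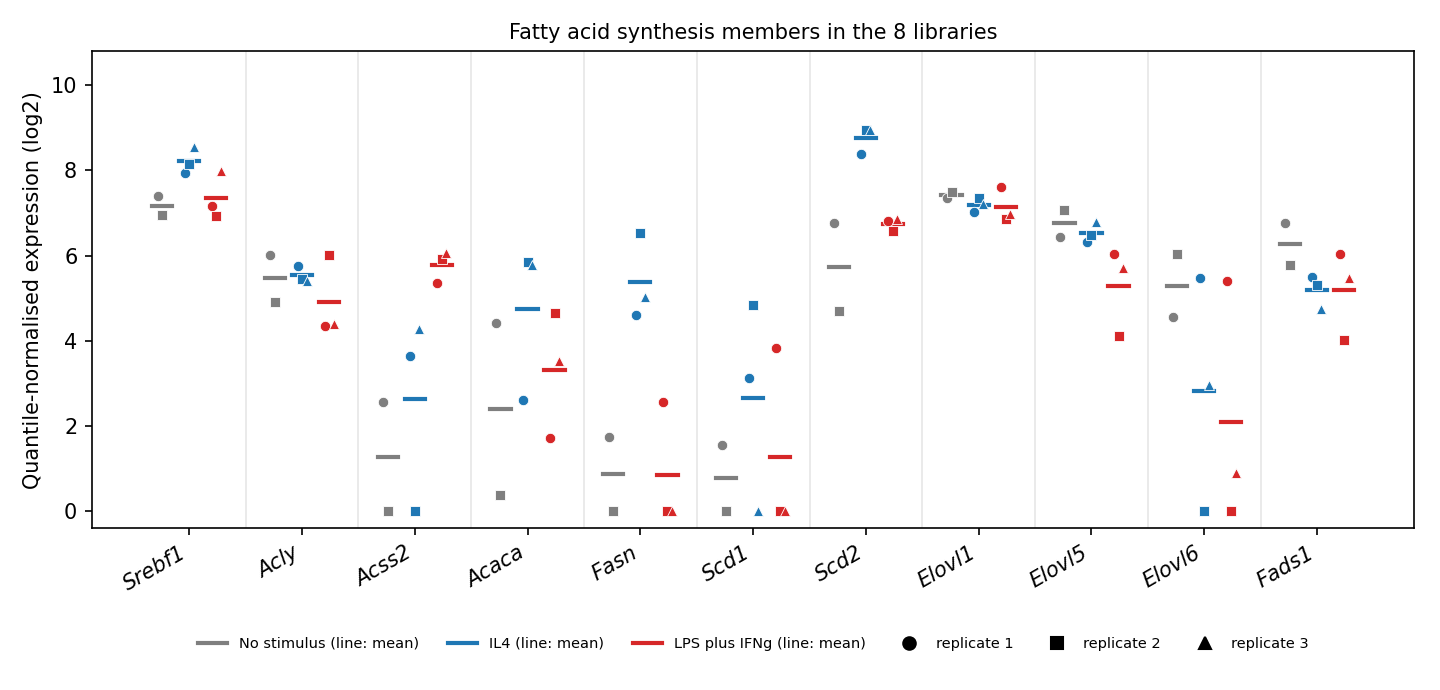
Log2 expression of 11 fatty acid synthesis members, all but Fads2, in each of the 8 libraries, with points for libraries grouped by stimulus and a line at each group mean. Fasn and Scd2 are highest in the 3 IL4 libraries, and Acss2 is highest in the 3 LPS plus IFNg libraries.

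Values listed at 0 weigh on the low members. Of the 31 tested members, 12 were listed at 0 in 1 or more libraries, and the 61.3% that never were stood beside 60.2% of all tested genes. The LPS plus IFNg libraries listed 3, 5 and 7 members at 0, the IL4 libraries 1, 5 and 4, and the unstimulated libraries 1 and 3. Of the 7 members called against IL4, only Fasn was listed at 0 in any library.

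**Figure D4:**
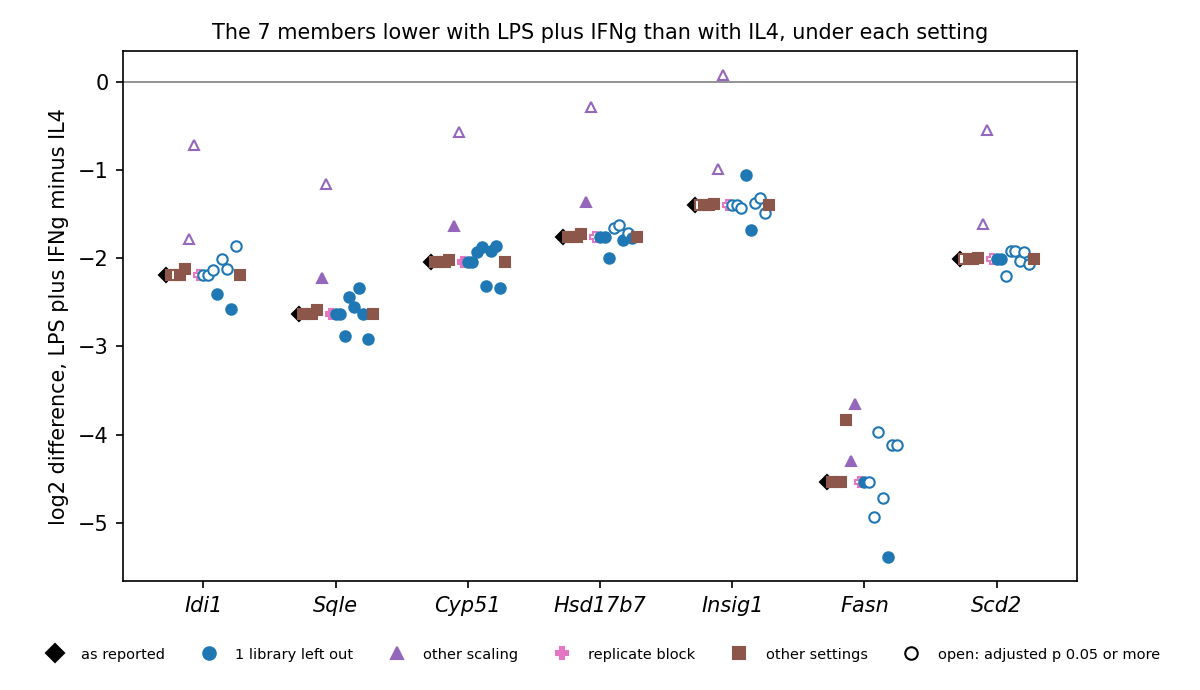
Log2 differences of the called members between LPS plus IFNg and IL4 under each way of processing the values that was tried, with called settings marked. Sqle and Cyp51 are called in 15 of 16 alternatives, while Idi1, Insig1 and Scd2 are called in 6 of 16.

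Other genes of the 2 pathways gave few calls. Of 14 further genes of sterol synthesis, uptake and SREBP processing, 12 could be tested and 0 passed in either comparison with unstimulated cells. Between LPS plus IFNg and IL4, 1 was higher and 1 was lower. Npc2, which carries cholesterol out of lysosomes, was 12.04 and 12.11 unstimulated, 10.89, 11.27 and 10.70 with IL4, and 12.49, 12.04 and 12.25 with LPS plus IFNg (difference 1.30, adjusted p 0.00758 in limma). With LPS plus IFNg, Npc2 was thus near its unstimulated level. Mbtps1, the site-1 protease that cuts SREBP, was lower with LPS plus IFNg than with IL4 by 1.29 on the log2 scale (adjusted p 0.0152). Sc4mol, a methyl sterol oxidase of the steps after Cyp51, differed by -1.26 with an adjusted p of 0.0611. Of 20 further fatty acid genes, 15 could be tested, and Hsd17b12, a reductase of the elongation cycle, was the one that passed. Hsd17b12 was 8.06 and 8.39 unstimulated, 9.28, 8.97 and 9.30 with IL4, and 8.43, 8.14 and 8.11 with LPS plus IFNg (difference -0.96, adjusted p 0.0165).

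Among 9 tested genes of sterol sensing and the LXR receptors, Ch25h rose with both stimuli. Ch25h makes 25-hydroxycholesterol, an oxysterol known to bind Insig proteins and hold back SREBP. Both unstimulated libraries listed it at 0, and its level was 7.58, 7.14 and 9.02 with IL4 (adjusted p 0.0134 in limma) and 4.92, 7.21 and 6.13 with LPS plus IFNg (adjusted p 0.00631). The difference between LPS plus IFNg and IL4 was -1.83 with an adjusted p of 0.183. Nr1h3, which encodes the sterol-activated receptor LXR alpha, was higher with LPS plus IFNg than with IL4 by 2.28 (adjusted p 0.0306 in limma). Against unstimulated cells its difference was 1.93 with an adjusted p of 0.109. Abca1, Abcg1 and Mylip, of the same list, differed between LPS plus IFNg and IL4 by 0.80, -0.57 and 1.48. None of these was called in any comparison.

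The promoters of the called members are given because these members carry the calls and because SREBPs are known to act with the factors NF-Y and Sp1 at such promoters. RefSeq promoter sequences on build GRCm38.p6 were on hand for 26 of the 32 members (33 promoters, each from 250 bases before to 50 bases after a start site). For Fdps, Fdft1, Sqle, Scd1, Scd2 and Fads1 there was no entry. In the sequences, read 5′ to 3′ along the gene, capitals mark the NF-Y box CCAAT or its other-strand form ATTGG and the E-box CACGTG. Cyp51 (chr5:4104648-4104947, minus strand), Fasn (chr11:120824498-120824797, minus), Hsd17b7 (chr1:169969156-169969455, minus), Idi1 (chr13:8885356-8885655, plus) and Insig1 (chr5:28071162-28071461, plus) were as follows.
Cyp51: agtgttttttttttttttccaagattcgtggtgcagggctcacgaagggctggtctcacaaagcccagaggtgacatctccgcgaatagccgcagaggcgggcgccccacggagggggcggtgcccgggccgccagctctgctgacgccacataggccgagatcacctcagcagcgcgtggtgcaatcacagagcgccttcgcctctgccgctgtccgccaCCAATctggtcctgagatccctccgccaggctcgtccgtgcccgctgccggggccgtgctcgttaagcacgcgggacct
Fasn: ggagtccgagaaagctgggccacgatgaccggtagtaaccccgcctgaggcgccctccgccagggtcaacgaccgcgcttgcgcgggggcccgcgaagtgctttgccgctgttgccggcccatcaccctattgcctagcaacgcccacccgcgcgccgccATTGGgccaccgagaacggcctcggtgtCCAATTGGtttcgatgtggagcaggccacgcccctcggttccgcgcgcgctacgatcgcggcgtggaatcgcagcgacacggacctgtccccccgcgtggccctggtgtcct
Hsd17b7: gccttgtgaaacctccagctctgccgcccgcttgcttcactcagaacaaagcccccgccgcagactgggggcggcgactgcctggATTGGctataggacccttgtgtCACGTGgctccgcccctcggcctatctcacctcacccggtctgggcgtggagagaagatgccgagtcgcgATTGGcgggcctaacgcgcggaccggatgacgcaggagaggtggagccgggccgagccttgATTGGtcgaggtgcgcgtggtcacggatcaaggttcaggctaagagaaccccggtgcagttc
Idi1: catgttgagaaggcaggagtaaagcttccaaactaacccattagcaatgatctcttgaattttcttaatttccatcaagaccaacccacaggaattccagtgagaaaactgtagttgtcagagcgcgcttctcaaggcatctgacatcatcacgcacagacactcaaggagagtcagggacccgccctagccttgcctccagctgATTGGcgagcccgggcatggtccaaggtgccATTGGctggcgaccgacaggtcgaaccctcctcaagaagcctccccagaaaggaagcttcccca
Insig1: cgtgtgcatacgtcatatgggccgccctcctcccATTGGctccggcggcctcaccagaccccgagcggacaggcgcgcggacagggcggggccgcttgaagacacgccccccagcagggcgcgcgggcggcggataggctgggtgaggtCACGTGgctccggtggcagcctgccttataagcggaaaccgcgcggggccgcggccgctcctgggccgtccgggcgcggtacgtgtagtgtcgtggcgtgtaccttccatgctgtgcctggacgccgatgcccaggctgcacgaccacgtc

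Each of these 5 promoters held an NF-Y box. Cyp51 and Insig1 had 1, Idi1 had 2, and Fasn and Hsd17b7 had 3, of which 2 in Fasn overlapped each other. Hsd17b7 and Insig1 also held 1 E-box each. Over all 33 member promoters, 66.7% held an NF-Y box, against 37.4% of the 32851 promoters in the table. The share was 71.4% among sterol and 58.3% among fatty acid promoters. The E-box was in 21.2% of member promoters against 7.15% of all, and the Sp1 box GGGCGG, searched on both strands, in 75.8% against 35.7%. The core of the sterol regulatory element, TCACNCCAC on either strand, was in 3.03% of member promoters, that of Hmgcs1, against 1.24% of all. The table also holds promoters of other kinds of gene, and the part of base composition in these shares was not tested.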

How the data were processed

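Per the labels, RNA was copied from its 3' ends with a barcoded oligo-dT primer, and the barcoded libraries were pooled before amplification. TopHat and the mm9 build stand in the submitters' processing notes, while no source used here names the counter or the annotation. The deposited values are log2, quantile-normalised by the authors, as the table's name states, and how values listed at 0 arose is not given. The table held 20259 rows, of which 1 without a symbol and 6643 that did not vary were left out.

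The deposited values of all 8 libraries were fitted in limma 3.58.1 (R 4.3.3) with a mean per group and an intensity trend (5 residual and 2.31 prior degrees of freedom), and Benjamini-Hochberg adjustment ran over 13615 genes. The script was tested on simulated data. The alternatives left out 1 library at a time, the genes of lowest mean, the trend or the third group, added a replicate block, damped low values, or rescaled to housekeeping or ribosomal protein genes. A filter at a mean of 5 was added after seeing the data. Members, gene lists and tests were chosen with earlier results of these data known. Every member is named, by its values where the results turn on it. From the further genes of a list those that passed, and a few whose role bears on the members, are named. Promoters were matched by symbol.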

Additional observations from a re-analysis of the deposited data

How the results depend on the processing

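Of 93 member differences, 9 were called and 84 were not. Of the 84, 31 changed sign in an alternative other than the 2 rescalings, 14 more did so only under a rescaling, and 13 were called in some alternative. With the scaling to ribosomal protein genes, LPS plus IFNg minus unstimulated was 1.24 for Sc5d and 1.20 for Elovl1, and LPS plus IFNg minus IL4 was 0.073 for Insig1 and 1.42 for Elovl1, the opposite sign to the main values. That scaling raised the median of all tested genes to 1.19 and 1.18 in these comparisons. Relative to it the 4 values were 0.054, 0.013, -1.10 and 0.24. The scaling shifts all values of a library by the same amount, except those listed at 0. These relative values are therefore no check on the changes of sign.

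For IL4 against unstimulated, 1 member was called higher both with the genes of lowest mean left out and with the added filter at a mean of 5, and 0 to 1 when 1 library was left out. The fatty acid median was then 0.083 to 0.94. All genes called higher numbered 70, against 7 with the 2 groups alone, 110 without the genes of lowest mean, 113 with the added filter, 7 with the replicate block and 36 to 123 with 1 library left out. Those called lower numbered 108, against 0 with the 2 groups alone, 1 with the block and 45 to 183 with 1 library left out.

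For LPS plus IFNg against unstimulated, members called higher were 5 under ribosomal protein scaling and 0 to 1 with 1 library left out. Members called lower were 1 without the trend, 1 with the 2 groups alone, 5 without the genes of lowest mean, 4 with the added filter, 0 under housekeeping scaling, 0 under ribosomal protein scaling, 0 with the replicate block and 0 to 3 with 1 library left out. The sterol median was -0.17 under housekeeping and 0.82 under ribosomal protein scaling. The fatty acid median was 1.01 under ribosomal protein scaling and -0.58 to 0.21 with 1 library left out. All genes called higher were 506, against 3893 under ribosomal protein scaling and 255 with the block. Those called lower were 579, against 304 under housekeeping scaling, 218 under ribosomal protein scaling, 256 with the block and 309 to 598 with 1 library left out.

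For LPS plus IFNg against IL4, 3 members were called higher under ribosomal protein scaling. Members called lower were 4 under housekeeping and 1 under ribosomal protein scaling, 2 with the replicate block (Sqle and Cyp51) and 3 to 5 with 1 library left out. The sterol median was -0.88 under housekeeping scaling, 0.073 under ribosomal protein scaling and -1.66 to -0.99 with 1 library left out, and the fatty acid median was 0.45 under ribosomal protein scaling. All genes called higher were 804, against 4666 under ribosomal protein scaling. Those called lower were 948, against 537 under housekeeping and 293 under ribosomal protein scaling.

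The rescaled values show the shift of the reference genes itself; the cause of the other changes was not tested. Deviations of same-numbered libraries from their group means correlated at -0.08 to 0.07 over 7283 genes, and those of differently numbered ones at -0.07 to 0.08. The numbers thus gave no sign of pairing. With 2 or 3 libraries in a group, this cannot exclude a shared animal, culture or day. Leaving out 1 unstimulated library leaves a lone one that is assumed to vary like the other groups. Medians were not computed under the 2 filters, which change the members. The depth behind a value is unknown, and values listed at 0 limit the low members most.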
